A study of Homo sapiens with 2 samples.

Results

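The miR-17-92 cluster was described through 10 of its mature arms, found by name among the 2656 mature microRNAs of the deposited count table. Small RNA was sequenced from MDA-MB-231, an established human breast cancer cell line, after transduction with an shRNA called shELOVL5, directed at the fatty acid elongase gene ELOVL5, or with the control shRNA, called shLuc. Each was sequenced as 1 library: both groups carry an shRNA, and neither is an untreated control. The shELOVL5 library held 6811811 microRNA counts and the shLuc library 7109272, from single-end reads of 50 nucleotides. The table lists microRNAs only, so ELOVL5 itself and the markers of the cell line were not analysed here. Whether the transduced cells were a pool or a clone is not given in the sources used here, and the labels' extraction text speaks of frozen tumours while the other labels name the cell line. With 1 library per group, no difference can be set against the variation between cultures. Every interval below is a 95% interval for counting error only, and PCR copies cannot be told apart from separate molecules.

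The cluster is transcribed as a single primary transcript, from which Drosha and Dicer cut hairpins that each yield a duplex. One strand of a duplex, the guide, is kept in Argonaute and recognises messenger RNAs mainly through its seed, bases 2 to 8, while the other strand, the passenger, is mostly degraded. The cluster is activated by MYC and E2F factors, is amplified or overexpressed in many tumours, and its guides are known to repress the pro-apoptotic BCL2L11 and the cell cycle inhibitor CDKN1A. Because the arms share a transcript, they are usually read together as one unit. The paralogous clusters miR-106b-25 and miR-106a-363 carry guides that share seeds with it, miR-106b-25 only those of miR-17 and miR-92a.

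The 6 hairpins lie on the plus strand of chromosome 13 between 91350605 and 91351391 (GRCh38.p14, RefSeq), a stretch of 787 bases, separated by 35 to 92 bases. In GENCODE release 29 they fall within the host gene MIR17HG (91347820 to 91354579), inside an exon of 2 of its 3 transcripts and inside an intron of the other. The RefSeq hairpins are shown in genomic order because they place each guide and passenger: capitals mark the 2 mature arms. The guide is the first capital run in miR-17, miR-18a and miR-20a, and the second in miR-19a, miR-19b-1 and miR-92a-1.
miR-17: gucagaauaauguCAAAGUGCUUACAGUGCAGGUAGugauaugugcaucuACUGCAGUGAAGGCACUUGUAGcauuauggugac
miR-18a: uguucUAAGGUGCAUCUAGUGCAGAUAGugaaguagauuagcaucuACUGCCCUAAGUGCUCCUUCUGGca
miR-19a: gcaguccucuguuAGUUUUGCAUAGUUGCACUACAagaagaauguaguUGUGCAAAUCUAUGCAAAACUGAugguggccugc
miR-20a: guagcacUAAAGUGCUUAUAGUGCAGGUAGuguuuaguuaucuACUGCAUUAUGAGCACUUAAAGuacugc
miR-19b-1: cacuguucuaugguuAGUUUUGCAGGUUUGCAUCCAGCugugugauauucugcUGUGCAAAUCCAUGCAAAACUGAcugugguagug
miR-92a-1: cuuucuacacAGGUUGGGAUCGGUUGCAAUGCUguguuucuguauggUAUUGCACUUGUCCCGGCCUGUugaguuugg

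All 10 members matched a RefSeq mature sequence. The 6 guides fall into 4 seed groups, shown with the seed in capitals.
hsa-miR-17-5p: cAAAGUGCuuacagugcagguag
hsa-miR-20a-5p: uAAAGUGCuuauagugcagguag
hsa-miR-18a-5p: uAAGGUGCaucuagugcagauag
hsa-miR-19a-3p: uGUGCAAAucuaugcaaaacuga
hsa-miR-19b-3p: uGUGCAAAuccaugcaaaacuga
hsa-miR-92a-3p: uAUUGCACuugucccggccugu
Counting positions from 1 at the 5′ end, hsa-miR-17-5p differs from hsa-miR-20a-5p by C1U and C12U, and hsa-miR-19a-3p from hsa-miR-19b-3p by U11C. None of the 4 passenger members shares a seed with a guide or with another passenger among the members.
hsa-miR-17-3p: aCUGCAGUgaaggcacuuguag
hsa-miR-18a-3p: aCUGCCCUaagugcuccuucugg
hsa-miR-20a-3p: aCUGCAUUaugagcacuuaaag
hsa-miR-92a-1-5p: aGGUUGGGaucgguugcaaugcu

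The cluster as a whole stood higher in shELOVL5 cells than in shLuc cells. Its 10 arms held 146167 counts in shELOVL5, 2.15% of that library (exact binomial interval 2.13 to 2.16%), and 115278 counts in shLuc, 1.62% (1.61 to 1.63%). After TMM scaling, which divides each count by an effective library size, the summed ratio of counts per 1000000 counts (CPM), shELOVL5 over shLuc, was 1.29 (1.28 to 1.30). The 6 guides together gave 1.29 (1.28 to 1.30) and the 4 passengers together 1.503 (1.36 to 1.66). Each of the 10 single ratios lay above 1, and the interval of 9 lay above 1 as a whole, the exception being hsa-miR-19a-3p. Among the 191 expressed microRNAs, defined below, the interval lay above 1 for 31.9%, and the median ratio was 0.978. No such share was computed for a set that also holds the 4 members below that expression limit. One microRNA dominated the sum. hsa-miR-92a-3p gave 66.7% of the cluster's counts in shELOVL5 (66.4 to 66.9%) and 64.6% in shLuc (64.4 to 64.9%). These shares use the highest of its precursor lines, and the intervals do not cover that choice. How reads that match several precursors were counted is not given. Without hsa-miR-92a-3p the summed ratio of the other 9 arms was 1.22 (1.20 to 1.23).

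**Figure D1:**
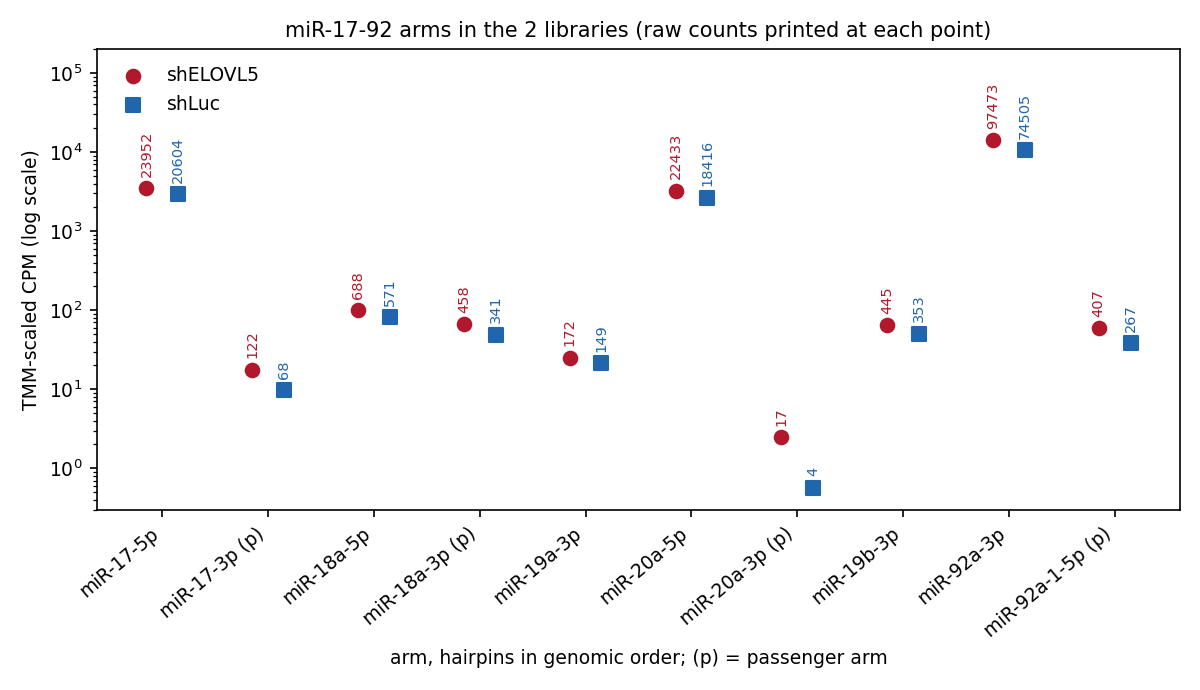
TMM-scaled CPM on a log axis for the 10 arms in genomic order of their hairpins, shELOVL5 as red circles and shLuc as blue squares, 1 library each, with raw counts printed at the points. In every arm the shELOVL5 point is the higher one, from 97473 against 74505 counts for hsa-miR-92a-3p to 17 against 4 for hsa-miR-20a-3p.

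The guide of the miR-92a-1 hairpin was the most abundant arm. hsa-miR-92a-3p, a broadly expressed microRNA also studied in endothelial cells, was read 97473 times in shELOVL5 (14132 CPM) and 74505 times in shLuc (10611 CPM), and ranked 17 in level among all microRNAs of the table. Its ratio was 1.33 (1.32 to 1.34). This was the highest ratio among the 6 guides.

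The miR-17 seed pair came next in abundance, at nearly equal levels. hsa-miR-17-5p, a regulator of the cell cycle and of TGF-beta signalling, was read 23952 times in shELOVL5 (3473 CPM) and 20604 times in shLuc (2934 CPM), giving a ratio of 1.18 (1.16 to 1.21). hsa-miR-20a-5p, which shares its seed and most of its known targets, was read 22433 times in shELOVL5 (3253 CPM) and 18416 times in shLuc (2623 CPM), giving a ratio of 1.24 (1.22 to 1.26). hsa-miR-17-5p exceeded hsa-miR-20a-5p by 1.07-fold in counts in shELOVL5 and by 1.12-fold in shLuc, both arms being 23 bases long.

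The miR-18a and miR-19 guides were far less abundant. hsa-miR-18a-5p, known to act on the estrogen receptor and on TGF-beta pathway genes, was read 688 times in shELOVL5 (99.8 CPM) and 571 times in shLuc (81.3 CPM), giving a ratio of 1.23 (1.10 to 1.37). hsa-miR-19b-3p was read 445 times in shELOVL5 (64.5 CPM) and 353 times in shLuc (50.3 CPM), giving a ratio of 1.28 (1.11 to 1.48). hsa-miR-19a-3p was read 172 times in shELOVL5 (24.9 CPM) and 149 times in shLuc (21.2 CPM), giving a ratio of 1.18 (0.938 to 1.47). The miR-19 guides are known as the main oncogenic arms of the cluster in mouse lymphoma. Between the highest and the lowest guide, hsa-miR-92a-3p and hsa-miR-19a-3p, counts differed 567-fold in shELOVL5 and 500.0-fold in shLuc, although the hairpins share a transcript. Levels of different microRNAs in such libraries also carry the ligation and amplification preferences of the method, whose part in this span was not tested.

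The guides' ratios were close to each other. Of the 15 pairs of guides, the ratio of their ratios had an interval above 1 in 3. The ratio of hsa-miR-92a-3p was 1.13 times that of hsa-miR-17-5p (1.10 to 1.15) and 1.07 times that of hsa-miR-20a-5p (1.05 to 1.10), and the ratio of hsa-miR-20a-5p was 1.05 times that of hsa-miR-17-5p (1.02 to 1.08). In the other 12 pairs the interval included 1, and each of these involved hsa-miR-18a-5p, hsa-miR-19a-3p or hsa-miR-19b-3p, whose few counts give wide intervals. For hsa-miR-92a-3p over hsa-miR-19a-3p, for example, it ran from 0.910 to 1.41 around 1.13.

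All 4 passenger arms had ratios above that of their own guide. For hsa-miR-18a-3p and hsa-miR-92a-1-5p, the interval of the passenger's ratio set against its guide's, given below, included 1. Over the 185 hairpins compared below, the less abundant arm had the higher ratio in 51.9%. hsa-miR-18a-3p was read 458 times in shELOVL5 (66.4 CPM) and 341 times in shLuc (48.6 CPM), giving a ratio of 1.37 (1.19 to 1.58). hsa-miR-92a-1-5p was read 407 times in shELOVL5 (59.0 CPM) and 267 times in shLuc (38.0 CPM), giving a ratio of 1.55 (1.33 to 1.82). hsa-miR-17-3p was read 122 times in shELOVL5 (17.7 CPM) and 68 times in shLuc (9.68 CPM), giving a ratio of 1.83 (1.35 to 2.49). The rarest, hsa-miR-20a-3p, was read 17 times in shELOVL5 (2.46 CPM) and 4 times in shLuc (0.570 CPM), giving a ratio of 4.33 (1.41 to 17.7) that rests on the 4 control counts. The less abundant a passenger was, the higher its ratio and the wider its interval.

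**Figure D2:**
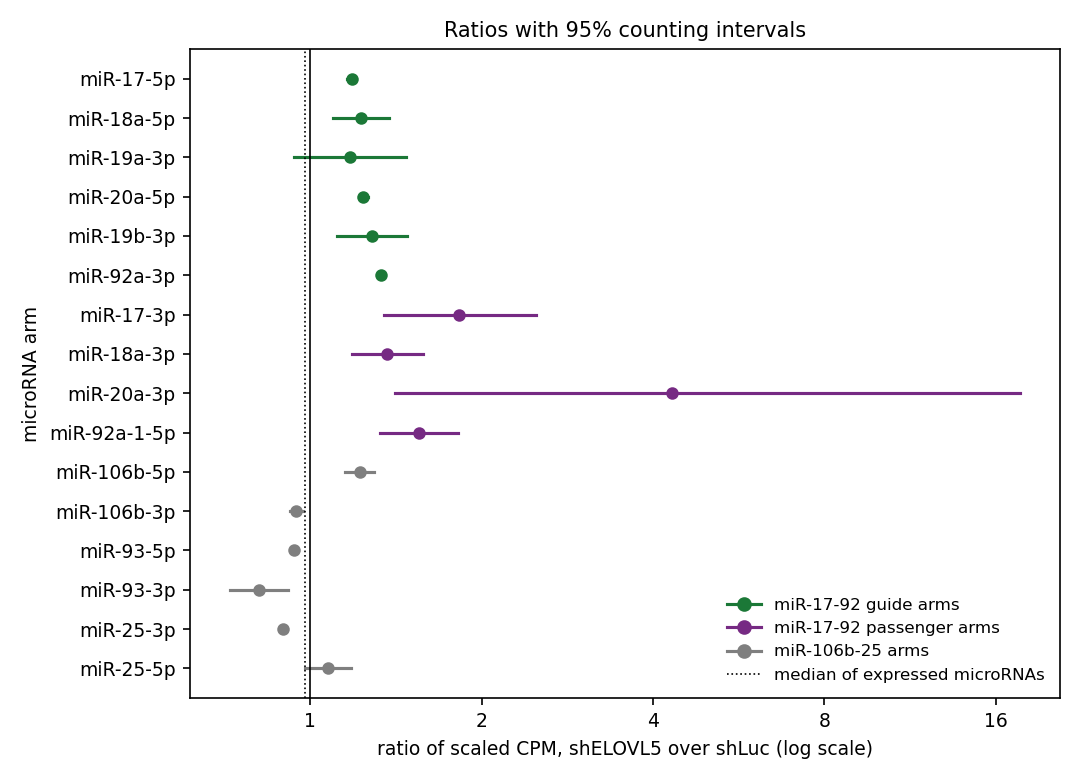
Ratio of scaled CPM, shELOVL5 over shLuc, on a log axis with 95% counting intervals for the miR-17-92 guides (green), its passengers (purple) and the miR-106b-25 arms (grey); the dotted line is the median of the 191 expressed microRNAs, 0.978. The 10 cluster arms lie to the right of 1, and 4 of the 6 miR-106b-25 arms to its left.

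Among the microRNAs called expressed, the members that passed lay toward the higher ratios. A microRNA was called expressed at a mean of at least 50 CPM and at least 100 counts over both libraries, which held for 191 microRNAs and for 6 of the 10 members: hsa-miR-17-5p, hsa-miR-18a-5p, hsa-miR-18a-3p, hsa-miR-19b-3p, hsa-miR-20a-5p and hsa-miR-92a-3p. Before scaling, hsa-miR-18a-3p and hsa-miR-19b-3p lay below 50 CPM in shLuc and passed only through the shELOVL5 library. For both, passing therefore required a higher value in shELOVL5, and their being higher is no separate result. Both are still counted among the 6 in the counts and the median below. The whole interval lay above 1 for the 6 expressed members, and for 31.9% of all expressed microRNAs. It lay below 1 for 0 of the 6 and for 41.9% of all. Their median log2 ratio was 0.34, from 0.24 to 0.45, beside a median of -0.033 over the 191. At least 25% higher in shELOVL5 were 3 of the 6, and 9.95% of all expressed microRNAs. Of the 3, hsa-miR-92a-3p passed through both libraries, while hsa-miR-18a-3p and hsa-miR-19b-3p passed only through shELOVL5. The same share of all, 9.95%, lay at least 20% lower. With total count scaling it was 5 of the 6, the additional ones being hsa-miR-20a-5p and hsa-miR-18a-5p, and the split over all expressed microRNAs was then 29 higher and 13 lower, against 19 and 19 with TMM. With DESeq2 size factors it was 3 of the 6, and 18 higher and 25 lower. Of the 6, 0 reached 1.5-fold and 0 reached 2-fold, as 3.14% and 1.57% of all expressed microRNAs did.

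By rank of the ratio among the 191, hsa-miR-18a-3p stood at 11, hsa-miR-92a-3p at 13, hsa-miR-19b-3p at 17, hsa-miR-20a-5p at 22, hsa-miR-18a-5p at 27 and hsa-miR-17-5p at 36. Since hsa-miR-18a-3p and hsa-miR-19b-3p passed only through shELOVL5, their high ranks are no separate result. With a lower limit of 10 CPM, 9 members were among 313 microRNAs and only hsa-miR-20a-3p was not. hsa-miR-17-3p, at 9.68 CPM in shLuc and 17.7 CPM in shELOVL5, passed only through the library where it was higher. At that limit 5 of the 9 were at least 25% higher and 2 of the 9, hsa-miR-17-3p and hsa-miR-92a-1-5p, reached 1.5-fold. The shares over all 313 were 15.7% and 5.43%.

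**Figure D3:**
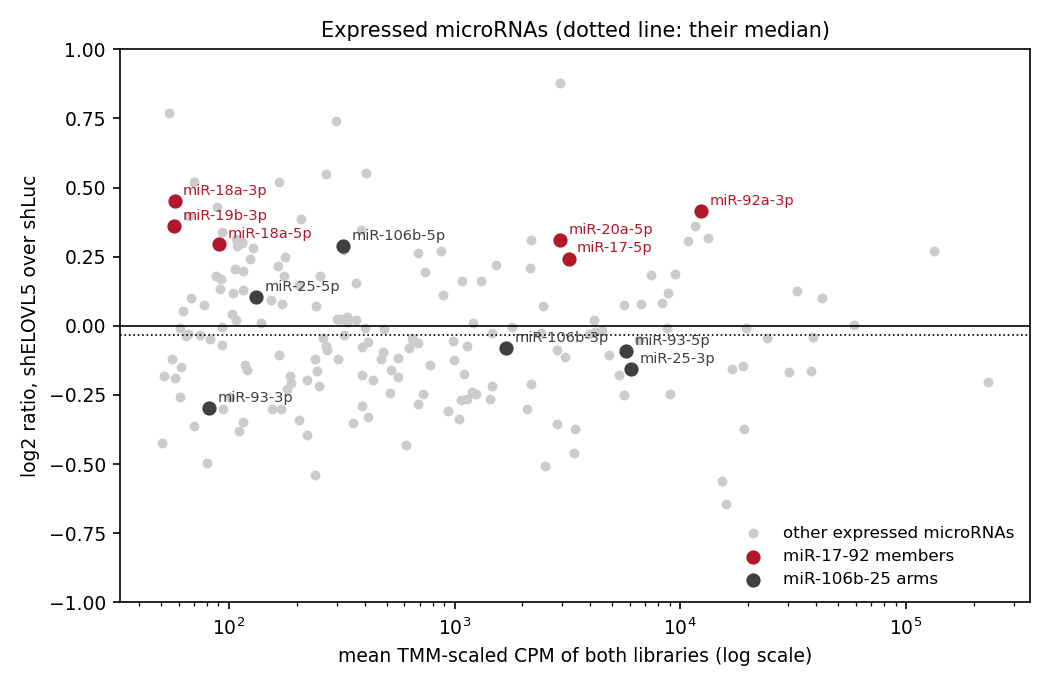
Log2 ratio, shELOVL5 over shLuc, against mean scaled CPM (log axis) for the expressed microRNAs, with the 6 expressed cluster members in red, the miR-106b-25 arms in black and the others in grey; 3 microRNAs lie above the top of the axis. The red points lie between 0.24 and 0.45, above the dotted median of -0.033. At low abundance, hsa-miR-18a-3p and hsa-miR-19b-3p passed the expression limit only through shELOVL5, so their lying above it is no separate result.

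The balance of guide and passenger is given for each hairpin as the passenger's share of its counts. In the miR-17 hairpin the passenger took 0.507% of the counts in shELOVL5 (0.421 to 0.605%) and 0.329% in shLuc (0.256 to 0.417%), an odds ratio of 1.54 (1.14 to 2.11). In the miR-20a hairpin it took 0.0757% in shELOVL5 (0.0441 to 0.121%) and 0.0217% in shLuc (0.00592 to 0.0556%), an odds ratio of 3.49 (1.14 to 14.3). These were the hairpins whose odds ratio had an interval above 1.

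In the miR-92a-1 hairpin the passenger took 0.416% in shELOVL5 (0.376 to 0.458%) and 0.357% in shLuc (0.316 to 0.402%), an odds ratio of 1.17 (0.996 to 1.37). The guide hsa-miR-92a-3p may include reads of a second hairpin on chromosome X, and the size of the share depends on which of its precursor lines is used: with the lines summed it was 0.217% in shELOVL5 and 0.186% in shLuc, and with the lowest line 0.450% in shELOVL5 and 0.387% in shLuc. The miR-18a hairpin was the one with nearly balanced arms, its passenger taking 39.97% in shELOVL5 (37.1 to 42.9%) and 37.4% in shLuc (34.2 to 40.6%), an odds ratio of 1.11 (0.929 to 1.34). Per passenger count there were 1.502 guide counts in shELOVL5 and 1.67 in shLuc for miR-18a, against 196 in shELOVL5 and 303 in shLuc for miR-17.

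The miR-19 hairpins have passengers outside the 10 members. hsa-miR-19b-1-5p had 20 counts in shELOVL5 and 9 in shLuc, an odds ratio to its guide of 1.76 (0.756 to 4.45). It took 4.30% of the hairpin in shELOVL5 and 2.49% in shLuc, and with the guide's precursor lines summed 2.23% in shELOVL5 and 1.26% in shLuc. hsa-miR-19a-5p was not read in either library (0 counts), which, taking 3 counts as the limit, allows a share of up to 1.74% of the miR-19a hairpin in shELOVL5 and 2.01% in shLuc. Each odds ratio is the passenger's ratio set against its guide's, so for the 4 hairpins with a passenger among the members it restates the single ratios with an interval and is no further result. Of the 5 hairpins with passenger counts, 2 had an interval above 1. Over all 185 hairpins with at least 100 counts and a count for each arm in each library, the less abundant arm had an odds ratio above 1 in 51.9% and an interval above 1 in 18.4%. Such intervals also occurred in the paralogous miR-106b-25 cluster. There the odds ratio of the less abundant arm was 1.29 (1.21 to 1.38) for miR-106b, 0.867 (0.769 to 0.977) for miR-93 and 1.20 (1.09 to 1.31) for miR-25. For miR-106b the less abundant arm was hsa-miR-106b-5p, which carries the miR-17 seed of a guide, so its odds ratio is not that of a passenger.

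**Figure D4:**
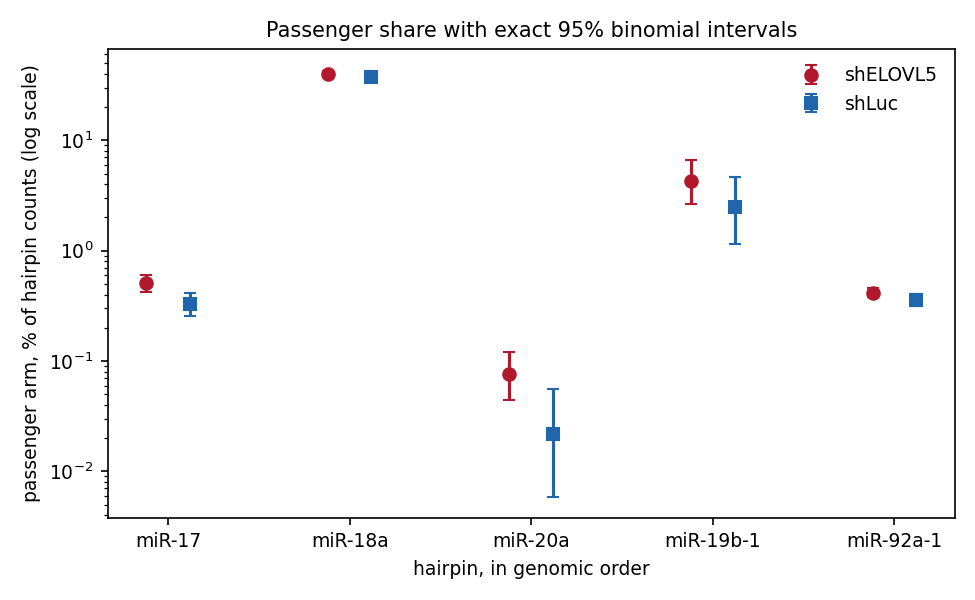
Passenger arm as a percentage of the hairpin's counts (log axis) for the 5 hairpins with passenger counts, shELOVL5 as red circles and shLuc as blue squares, with exact 95% binomial intervals. The share runs from 0.0217% for miR-20a in shLuc to 39.97% for miR-18a in shELOVL5, and the shELOVL5 point is the higher one in each hairpin.

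Not every member belongs to chromosome 13 alone. The mature sequences of hsa-miR-19b-3p and hsa-miR-92a-3p are also encoded on the minus strand of chromosome X in the miR-106a-363 cluster, at 134169683 to 134169705 and at 134169544 to 134169565 (GRCh38.p14). The table lists both under each precursor. The miR-92a-1 line of hsa-miR-92a-3p had 97473 counts in shELOVL5 and 74505 in shLuc, and the miR-92a-2 line had 89997 in shELOVL5 and 68703 in shLuc. The lines thus differed by 7.67% in shELOVL5 and 7.79% in shLuc, and their ratios were 1.33 and 1.33. For hsa-miR-19b-3p the miR-19b-1 line had 432 counts in shELOVL5 and 350 in shLuc, and the miR-19b-2 line 445 in shELOVL5 and 353 in shLuc. Since the mature sequence is identical in both precursors, the lines do not say from which chromosome a read came.

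The passenger arms differ between the loci and can be read separately. The chromosome X passengers, hsa-miR-92a-2-5p and hsa-miR-19b-2-5p, were not read in either library; taking 3 counts as the limit, 0 counts leave room for scaled levels up to 0.435 CPM (shELOVL5) and 0.427 CPM (shLuc). Their chromosome 13 counterparts had 407 and 267 counts (hsa-miR-92a-1-5p in shELOVL5 and in shLuc) and 20 and 9 counts (hsa-miR-19b-1-5p). These passengers are printed with the seed in capitals, since they differ between the loci while the guides do not.
hsa-miR-92a-2-5p: gGGUGGGGauuuguugcauuac
hsa-miR-19b-1-5p: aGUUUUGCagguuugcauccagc
hsa-miR-19b-2-5p: aGUUUUGCagguuugcauuuca

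The other arms of the chromosome X cluster were rare. hsa-miR-106a-5p, which differs from hsa-miR-17-5p by C1A and may share reads with it, had 701 counts in shELOVL5 and 530 in shLuc, a ratio of 1.35 (1.20 to 1.51). hsa-miR-20b-5p had 90 counts in shELOVL5 and 78 in shLuc, a ratio of 1.17 (0.858 to 1.61). hsa-miR-18b-5p, which differs from hsa-miR-18a-5p by A20U, had 1 count in shELOVL5 and 6 in shLuc. hsa-miR-18b-3p had 1 in shELOVL5 and 2 in shLuc, hsa-miR-363-3p had 0 in shELOVL5 and 1 in shLuc, and hsa-miR-106a-3p, hsa-miR-20b-3p and hsa-miR-363-5p had 0 in both. These 8 arms together held 793 counts in shELOVL5 and 617 in shLuc. The summed miR-17-92 ratio over that of these 8 miR-106a-363 arms was 0.987 (0.888 to 1.10). Most of the 8 arms' counts were those of hsa-miR-106a-5p, so this value rests mainly on an arm that may share reads with hsa-miR-17-5p.

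The miR-106b-25 cluster, in the gene of the replication helicase subunit MCM7 on chromosome 7, was also well expressed and differed in its ratios. Its 6 arms held 93233 counts in shELOVL5 and 102379 in shLuc, a summed ratio of 0.927 (0.919 to 0.935). The summed miR-17-92 ratio was 1.39 times that of miR-106b-25 (1.38 to 1.41), and 1.31 times (1.29 to 1.33) without hsa-miR-92a-3p. Among its arms, 4 of 6 had an interval below 1, as did 41.9% of all expressed microRNAs. The interval lay above 1 for 1 of 6, hsa-miR-106b-5p, and for 31.9% of all expressed microRNAs. The ratio of hsa-miR-106b-5p was 1.22 (1.15 to 1.30), with 2442 counts in shELOVL5 and 2036 in shLuc. The median log2 ratio of the 6 arms was -0.086, beside -0.033 over all expressed microRNAs. The arms ran from -0.30 for hsa-miR-93-3p to 0.29 for hsa-miR-106b-5p, whereas the lowest miR-17-92 arm stood at 0.23.

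Because a seed is shared between clusters, the share of each seed's counts that came from the cluster was also computed over the 2367 microRNAs of the table with a RefSeq sequence. Arms of other loci with the miR-17 or the miR-92a seed are printed with that seed in capitals, to show what they share with the cluster's guides and where they part.
hsa-miR-93-5p: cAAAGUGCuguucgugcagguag
hsa-miR-106b-5p: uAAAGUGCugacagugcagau
hsa-miR-106a-5p: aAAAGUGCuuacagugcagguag
hsa-miR-25-3p: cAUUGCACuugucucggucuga
hsa-miR-92b-3p: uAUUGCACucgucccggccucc
hsa-miR-32-5p: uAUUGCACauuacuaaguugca
hsa-miR-93-5p differs from hsa-miR-17-5p by U10G, A11U, C12U and A13C. hsa-miR-25-3p differs from hsa-miR-92a-3p by U1C, C14U, C18U and U22A, and hsa-miR-92b-3p differs from it by U10C, G21C and U22C.

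The miR-17 seed family, with 8 microRNAs of which 7 had counts, stood at 12755 CPM in shELOVL5 and 11860 CPM in shLuc, a ratio of 1.08 (1.07 to 1.09). hsa-miR-17-5p and hsa-miR-20a-5p gave 52.7% of it in shELOVL5 (52.4 to 53.1%) and 46.9% in shLuc (46.5 to 47.2%). hsa-miR-93-5p, the largest single contributor, gave 43.6% in shELOVL5 and 50.0% in shLuc. The pair from the cluster therefore exceeded hsa-miR-93-5p in shELOVL5 and stood below it in shLuc. hsa-miR-519d-3p, a member of the family from the C19MC cluster, had 3 counts in shELOVL5 and 0 in shLuc.

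The miR-92a seed family, with 6 microRNAs of which 5 had counts, stood at 21056 CPM in shELOVL5 and 18398 CPM in shLuc, a ratio of 1.14 (1.14 to 1.15). hsa-miR-92a-3p gave 67.1% of it in shELOVL5 (66.9 to 67.4%) and 57.7% in shLuc (57.4 to 57.9%). These shares too use its highest precursor line, a choice the intervals do not cover. hsa-miR-25-3p gave 27.3% in shELOVL5 and 34.8% in shLuc, and hsa-miR-92b-3p 5.41% in shELOVL5 and 7.34% in shLuc, so both took a smaller part in shELOVL5. hsa-miR-32-5p had 230 counts in shELOVL5 and 177 in shLuc, and hsa-miR-367-3p 0 in both.

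Among the 2367 microRNAs with a RefSeq sequence, the other seeds came almost wholly from the cluster. The miR-19 seed was carried by its 2 members alone, with 617 counts in shELOVL5 and 502 in shLuc, a ratio of 1.251 (1.11 to 1.41). hsa-miR-18a-5p gave 99.9% of its seed family in shELOVL5 and 99.0% in shLuc. Each passenger member was the single microRNA with its seed among those 2367.

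**Figure D5:**
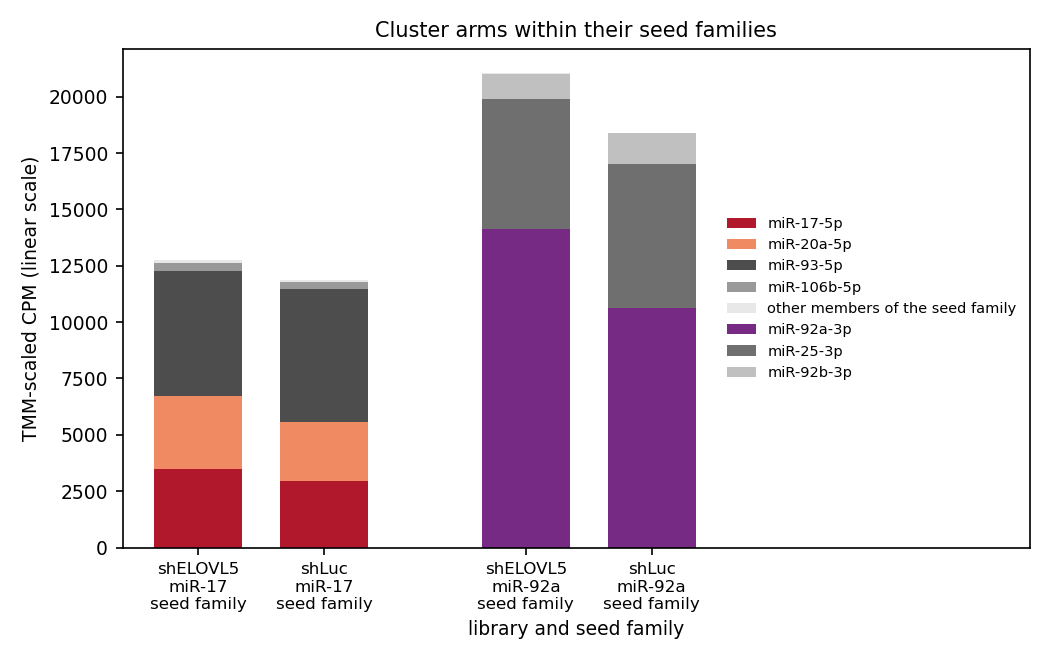
Summed TMM-scaled CPM (linear axis from 0) of the miR-17 and miR-92a seed families, shELOVL5 left of shLuc in each, stacked by microRNA with the cluster's guides in colour and those of other loci in grey. The coloured part is taller in shELOVL5 in both families, 52.7% against 46.9% of the miR-17 family and 67.1% against 57.7% of the miR-92a family.

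The 3 expressed microRNAs outside these lists whose log2 ratio lay nearest to the summed cluster's 0.37, over the 2 libraries, were hsa-miR-29a-3p, hsa-miR-200b-3p and hsa-miR-584-5p. hsa-miR-29a-3p, a repressor of collagen genes, had 90085 counts in shELOVL5 and 71451 in shLuc, a ratio of 1.28 (1.27 to 1.30). hsa-miR-200b-3p, which represses the ZEB factors, had 1626 counts in shELOVL5 and 1265 in shLuc, a ratio of 1.31 (1.22 to 1.41). hsa-miR-584-5p had 2968 counts in shELOVL5 and 2374 in shLuc, a ratio of 1.27 (1.21 to 1.34). With 2 libraries such nearness is a single number per microRNA.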

How the data were processed

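The authors deposited unnormalized counts of reads for each mature microRNA under each of its precursors. The submitters' processing notes list Bowtie 1.1.1, FastQC 0.11.9 and cutadapt 2.10 with no settings. What counted the reads, on which microRNA release and genome build, is not given in the sources used here. Of 2656 mature microRNAs, 166 have more than 1 precursor line; the highest line per library was kept. CPM values, per 1000000 counts, used TMM factors of 1.01 for shELOVL5 and 0.988 for shLuc (edgeR 4.0.16, R 4.3.3). A microRNA was called expressed at an unscaled mean of at least 50 CPM and at least 100 counts. With 1 library per group no test was made; 95% intervals are exact (Clopper-Pearson or conditional odds ratio, scipy 1.17.1), or normal on the log scale between sums or guide arms, and cover counting error only. On counts simulated for shELOVL5 over shLuc with counting error alone, 95.2% of 418 intervals contained the simulated ratio. This checks how the intervals were computed, not whether they hold in these libraries, since PCR copies and variation between cultures were not simulated.

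All 10 cluster arms, the other arms of their hairpins and second loci, the paralogous clusters, the other seed-family microRNAs and the 3 expressed microRNAs nearest in log2 ratio were named by rule. Members and lists were chosen with earlier results of these data known. The alternatives were other scalings (DESeq2 1.42.0 size factors among them), precursor-line choices, abundance limits, folds, 5 CPM added and summed arms left out.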

Additional observations from a re-analysis of the deposited data

How the results depend on the processing

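No paired analysis was possible because shELOVL5 and shLuc have 1 library each; leaving a library out was not possible either. The log2 ratio of the summed arms, 0.37, was 0.40 with total counts, 0.34 with DESeq2 size factors (which were 1 and 1, so equal to unscaled counts), 0.41 with totals that leave out the 2 most abundant microRNAs, and 0.40 with DESeq2 size factors over the expressed microRNAs, an alternative chosen after seeing the data. It was 0.28 without hsa-miR-92a-3p, and 0.28 without hsa-miR-19b-3p and hsa-miR-92a-3p. These scalings shift every log2 ratio by the same amount, from -0.026 to 0.039.

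Of the 3 expressed members at least 25% higher, hsa-miR-18a-3p and hsa-miR-19b-3p had passed the limit only through shELOVL5. The 3 members became 5 with total counts, 5 with totals that leave out the 2 most abundant microRNAs and 5 with DESeq2 size factors over expressed microRNAs. They were 0 at 1.5-fold and 0 at 2-fold, 5 of 9 with a mean of at least 10 CPM, 1 of 3 with at least 1000 CPM and 6 of 10 with 1 count in each library. The share of all microRNAs that much higher, 9.95%, was 15.2% under both of the first scalings and 14.1% with DESeq2 size factors over expressed microRNAs. The same share was 3.14% at 1.5-fold, 1.57% at 2-fold, 15.7% from 10 CPM, 4.41% from 1000 CPM and 29.1% with 1 count in each library. The median of miR-106b-25, -0.086, was -0.050 with total counts and -0.054 with DESeq2 size factors over expressed microRNAs. The 9 members with an interval above 1 stayed 9 under every scaling and precursor-line choice tried. With TMM, 31.9% of all expressed microRNAs had such an interval. The lowest of the 9 intervals began at 1.10 (hsa-miR-18a-5p). Shifts of the log2 ratios from -0.026 to 0.039 could therefore not change this count, so its staying at 9 across scalings shows nothing further.

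Of 24 pairs of a passenger share and a precursor-line choice, 3 moved beyond the counting interval, the shares of miR-92a-1 in both libraries and of miR-19b-1 in shELOVL5, all with the lines summed. Of 70 pairs of an arm and an alternative, 12 moved beyond the counting interval and 0 changed sign. Adding the same CPM to both values cannot change a sign, and the scaling shifts were smaller than every arm's log2 ratio. With 5 CPM added the log2 ratio of hsa-miR-20a-3p was 0.42, against 2.11. Depth limits hsa-miR-20a-3p, hsa-miR-19a-3p and hsa-miR-17-3p; every comparison is limited by its single library per group.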
